A study of Mus musculus with 9 samples.

Results

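Mitochondrially encoded genes are the genes carried by the small circular genome inside mitochondria. They were chosen here by symbol, as every gene whose mouse symbol begins with mt-, and the rule found 37 of the 51912 genes in the deposited tables. They comprise 13 messenger RNAs for core subunits of the respiratory chain, 2 ribosomal RNAs and 22 transfer RNAs. The samples were hippocampal cells of male C57BL/6 mice in which the Camk2a promoter drives Cre, an arrangement meant to mark pyramidal neurons. Injected rAAV5, a viral vector, delivered mCherry that only cells with Cre can switch on, and fluorescent cells were sorted 3 weeks later with DAPI used to leave out dead ones. The labels name 3 vector doses, 2.88e+08, 2.88e+09 and 2.88e+10 vector genomes, and the lowest served as the study's control. All 3 doses received virus, so no uninjected cells were measured here.

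The labels of the 9 libraries, S1001 to S1009, give no dose. The column headers carry the letters H for S1001 to S1003, M for S1004 to S1006 and L for S1007 to S1009, which the labels do not explain. They were not used to form groups, so 0 of 9 libraries had a group, no dose comparison was tested, and values are given for each library. Total gene counts ranged from 12136830 to 19151596. The sort label is only in part matched by marker genes. Pyramidal neuron markers such as Slc17a7, a glutamate transporter, summed to 3093 to 7701 CPM, where CPM is a count relative to the scaled library total. Microglia and macrophage markers, of which 12 of 12 were detected in every library, summed to 27.4 to 18407 CPM. Of the 6 endothelial markers none reached a mean of 1 CPM, and the junction genes Cldn5 and Cdh5 each had no count in 7 libraries. S1001, S1002 and S1003 were closer to each other than any other libraries were, with chi-square values of 2.67, 2.82 and 5.14 per degree of freedom over all genes, against 24.3 or more for every other pair. Over the mitochondrially encoded genes alone these pairs had chi-square p = 2.33e-06, 1.86e-16 and 2.02e-37. These p-values cover counting error only and do not show that the 3 came from separate RNA or animals, which the labels do not say either. Each is given as its own library, and the summed and counted spreads are also given without S1002 and S1003.

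The mitochondrial genome is read from both strands as long transcripts, which are cut mainly at the transfer RNAs that lie between the other genes. Its messenger RNAs encode subunits of complexes I, III, IV and V, the chain that passes electrons to oxygen and makes ATP. All other subunits of these complexes, and every protein that copies, transcribes or translates the mitochondrial genome, come from nuclear genes. Pyramidal neurons rely heavily on this chain, since firing and synaptic transmission consume much ATP. The nuclear genome also holds inserted copies of mitochondrial DNA, and such copies bear on how reads of mitochondrial genes can be counted.

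A stretch of the mitochondrial genome has a near-perfect copy on mouse chromosome 1. In the GENCODE M21 annotation (build mm10) 7 neighbouring pseudogenes on chromosome 1, from 24611535 to 24616197 on the minus strand, matched mt-Co1, mt-Co2, mt-Atp6, mt-Co3, mt-Nd3, mt-Nd4l and mt-Nd4. They lay in the same order as positions 6390 to 11042 of the mitochondrial genome. Over their aligned bases 6 of the 7 copies had 0 substitutions. mt-Nd4l, a complex I subunit (positions 9877 to 10173 of the mitochondrial genome), is printed whole, since nearly all of it is shared. Capitals mark the 294 of its 297 bases that aligned without change to the pseudogene Gm10222. The lower-case bases lie beyond the annotated end of Gm10222 and were not compared with it. They fall in the overlap with mt-Nd4, whose bases 1 to 876 aligned to Gm28439 with 0 substitutions.
mt-Nd4l: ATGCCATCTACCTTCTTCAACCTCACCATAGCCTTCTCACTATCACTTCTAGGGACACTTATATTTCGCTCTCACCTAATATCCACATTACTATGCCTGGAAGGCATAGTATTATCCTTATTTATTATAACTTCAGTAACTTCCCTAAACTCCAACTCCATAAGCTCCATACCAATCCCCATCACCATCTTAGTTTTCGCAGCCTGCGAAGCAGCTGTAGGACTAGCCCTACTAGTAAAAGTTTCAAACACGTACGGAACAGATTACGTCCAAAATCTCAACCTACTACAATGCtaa

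The 7th copy, Gm29216, covered 483 bases of mt-Co1, a core subunit of complex IV, with a single substitution. That substitution is A1066T, where the mitochondrial base comes first and positions count from the first base of mt-Co1. The first 60 aligned bases show it in capitals.
mt-Co1: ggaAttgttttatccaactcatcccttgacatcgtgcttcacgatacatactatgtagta
Gm29216: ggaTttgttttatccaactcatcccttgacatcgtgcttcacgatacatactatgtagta

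Copies on chromosome 2 were less alike. Gm13340 matched all 1545 bases of mt-Co1 with 37 substitutions (97.61% identity), Gm13341 matched mt-Co2 at 97.62%, and Gm13339 matched 510 bases of mt-Nd2, a complex I subunit, with 17 substitutions (96.67%). The first 90 aligned bases of the last pair are shown for contrast, with the differing bases in capitals.
mt-Nd2: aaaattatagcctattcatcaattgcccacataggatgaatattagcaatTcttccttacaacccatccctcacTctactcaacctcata
Gm13339: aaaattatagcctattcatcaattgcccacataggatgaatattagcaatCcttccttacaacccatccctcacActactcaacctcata

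Mitochondrially encoded genes held 1.45%, 1.45%, 1.52%, 1.15%, 1.09%, 0.866%, 0.482%, 0.610% and 0.756% of all gene counts in S1001 to S1009. The exact 95% binomial interval was narrow in each library, from 1.51% to 1.52% in S1003, the highest, and from 0.479% to 0.486% in S1007, the lowest. These intervals, like every limit from a count of 0, cover counting error only. In such sorted pools, fewer cells of a type and less RNA per cell cannot be told apart. Of the 37 genes, 16 had counts, and these 16 had counts in every library. All 13 messenger RNAs and both ribosomal RNAs were among them, and mt-Tp, for proline, was the only transfer RNA. Of the 16, 15 reached a mean of 1 CPM and mt-Nd4l did not.

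Levels were compared between genes only per kilobase of gene, as CPM per kilobase. mt-Cytb, the complex III subunit that carries its heme b groups (positions 14145 to 15288), was highest, with a median of 2239 CPM per kilobase over the 9 libraries. mt-Nd1 of complex I followed at 1527, and within each library mt-Cytb exceeded mt-Nd1. mt-Rnr2, the large ribosomal RNA, and mt-Co1 had medians of 982 and 922, but mt-Co1 exceeded mt-Rnr2 in 7 of 9 libraries, so their order is not fixed. mt-Nd4 had a median of 667, mt-Nd2 of 611, mt-Rnr1, the small ribosomal RNA, of 425, and mt-Nd5 of 339 CPM per kilobase, all 3 of the Nd genes encoding complex I subunits. The order of the neighbours mt-Nd4 and mt-Nd2 held in 7 of 9 libraries, that of mt-Nd2 and mt-Rnr1 in 7, and that of mt-Rnr1 and mt-Nd5 in 4. mt-Nd6 of complex I, the only messenger RNA read from the other strand, had 230 CPM per kilobase.

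The remaining messenger RNAs lay far below. mt-Atp6, a subunit of the ATP synthase (complex V), had a median of 45 CPM per kilobase, 5.11-fold below mt-Nd6. mt-Co2 and mt-Co3, complex IV subunits made in equal number with Co1 in the assembled enzyme, had 21.0 and 14.6, against 922 for mt-Co1. mt-Atp8 of complex V had 9.06, and the complex I subunits mt-Nd3 and mt-Nd4l had 3.37 and 2.70 CPM per kilobase. This gap was present in every library, where the highest of these 6 genes stayed below mt-Nd6 (108.9 to 275 CPM per kilobase).

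**Figure D1:**
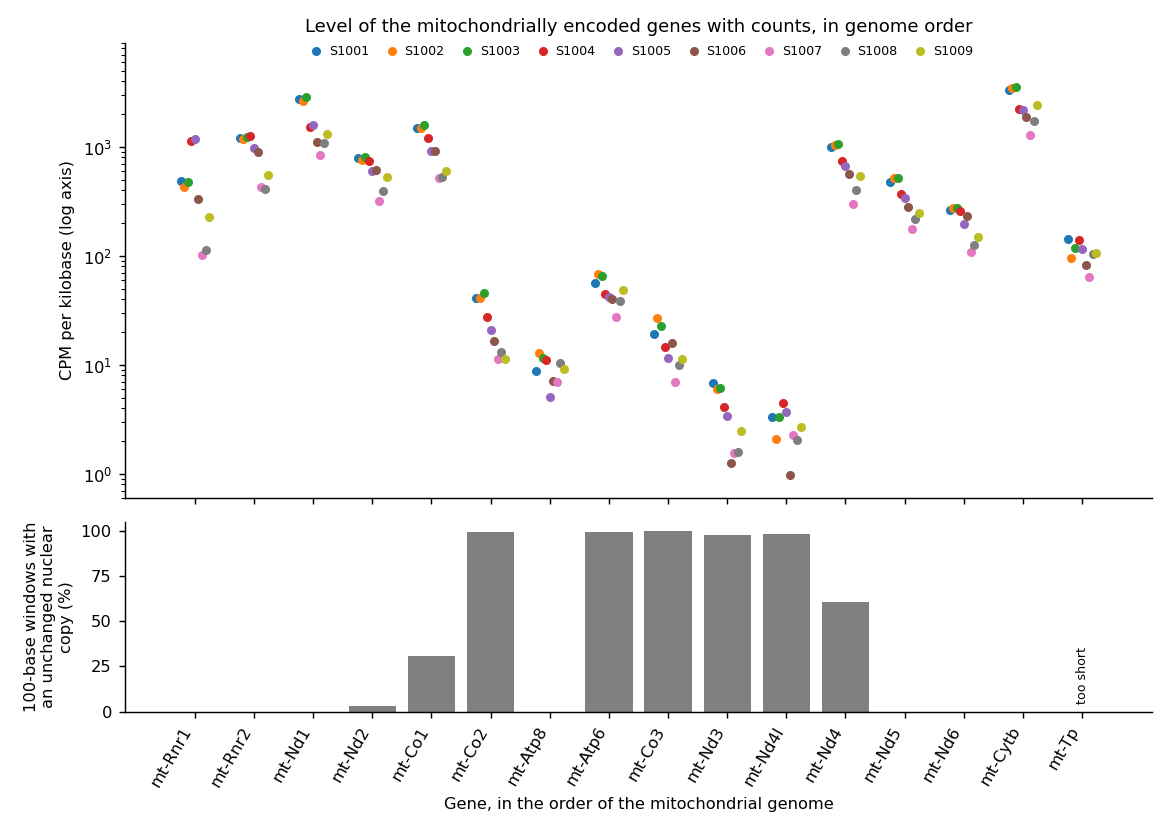
Upper panel: level of each of the 16 genes with counts in CPM per kilobase (log axis), 1 point for each library. Lower panel: share of a gene's 100-base windows that occur unchanged in an annotated transcript of a nuclear gene, in percent. The 5 genes with shares of 97.59% to 99.85% lie at medians of 2.70 to 45 CPM per kilobase. mt-Tp is shorter than 100 bases.

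The low genes were those with unchanged nuclear copies, with mt-Atp8 as the exception. Of all 100-base windows of mt-Co2, mt-Atp6, mt-Co3, mt-Nd3 and mt-Nd4l, 99.49%, 99.48%, 99.85%, 97.59% and 98.48% occurred unchanged in an annotated transcript of a nuclear gene. The share was 60.75% for mt-Nd4, 30.84% for mt-Co1, 3.195% for mt-Nd2, and 0 for mt-Nd1, mt-Nd5, mt-Nd6, mt-Cytb, mt-Atp8 and both ribosomal RNAs. With windows of 150 bases the same 5 genes had shares of 96.98% to 99.84% and no other gene exceeded 59.15%. These 5 genes together held 0.696% to 0.839% of the messenger RNA counts in a library. The sources used here do not give the read length or the treatment of reads that match several places, and their part in these levels was not tested. The levels of these 5 genes, and in part those of mt-Nd4 and mt-Co1, are therefore uncertain. For mt-Atp8 no annotated copy was found, but the 161 bases of it that precede mt-Atp6 fall between mt-Co2 and mt-Atp6. The aligned ends of those genes are 233 bases apart, and their copies on chromosome 1 are also 233 bases apart. The genome sequence of that gap was not used here. mt-Atp8 also shares 43 bases, 21.1% of its length, with mt-Atp6, and mt-Nd4l shares 7 bases with mt-Nd4.

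The chromosome 1 copies themselves had counts. Gm10925, the copy of mt-Atp6, had 429, 441, 472, 427, 325, 284, 204, 310 and 401 counts in S1001 to S1009, against 464, 607, 584, 582, 412, 373, 275, 433 and 533 for mt-Atp6. The gene had 1.08 to 1.40 times the counts of its copy. mt-Co3 had 0.823 to 1.35 times the counts of its copy Gm28437, and mt-Co2 had 2.40 to 4.30 times those of Gm28661. The pairs with few counts varied more, at 1.33 to 9.33 for mt-Nd3 and 2.00 to 16 for mt-Nd4l, where the copy had 1 to 4 counts. mt-Nd4 and mt-Co1, of which the chromosome 1 copies hold only a part, had medians of 511 and 334 times the counts of Gm28439 and Gm29216. The less similar copies on chromosome 2 had 0 to 4 counts in any library, and Gm11512 on chromosome 11, which shares 5 windows of 50 bases with mt-Co1, had 1 count in S1001 and 0 elsewhere.

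Across libraries the messenger RNAs had a largely shared order. mt-Cytb measured 3812, 3961, 4073, 2562, 2499, 2137, 1466, 1985 and 2756 CPM in S1001 to S1009. mt-Nd1 measured 2614, 2528, 2760, 1462, 1514, 1050, 797, 1039 and 1249 CPM. mt-Co1 measured 2310, 2282, 2441, 1858, 1425, 1412, 806, 807 and 931 CPM. In all 3 genes S1001 to S1003 were highest and S1007 was lowest. In mt-Co1 S1007 and S1008 were nearly equal, at 805.96 and 806.63 CPM.

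For the other abundant complex I messenger RNAs S1001 to S1003 were likewise highest and S1007 lowest, while the libraries between changed places from gene to gene. mt-Nd4 measured 1378, 1420, 1458, 1024, 919, 778, 413, 553 and 738 CPM. mt-Nd5 measured 857, 946, 935, 667, 618, 513, 318, 394 and 448 CPM. In mt-Nd2, at 811, 776, 842, 767, 621, 634, 327, 404 and 548 CPM, S1004 lay just below S1002. In mt-Nd6, at 137, 142, 142, 135, 102, 119, 56.5, 64.6 and 77.7 CPM, S1004 was likewise close to S1001.

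Among the genes with unchanged nuclear copies, mt-Co2 measured 27.9, 28.1, 30.9, 18.9, 14.3, 11.3, 7.80, 9.02 and 7.77 CPM. mt-Co3 measured 15.2, 21.2, 17.9, 11.4, 8.96, 12.3, 5.45, 7.86 and 8.81 CPM, and mt-Atp6 measured 38.0, 46.6, 44.5, 30.6, 28.4, 27.1, 18.5, 26.4 and 32.8 CPM. They kept S1001 to S1003 on top, although S1009 came close to S1001 in mt-Atp6. mt-Nd3 ranged from 0.436 to 2.38 CPM on 6 to 29 counts, mt-Atp8 from 1.03 to 2.61 CPM on 15 to 43 counts, and mt-Nd4l from 0.291 to 1.32 CPM on 4 to 25 counts. At these counts the order of the libraries is not resolved.

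In 11 of the 15 genes that averaged 1 CPM or more, all 11 being messenger RNAs, S1001, S1002 and S1003 were the 3 highest libraries. Over all 14787 genes at that level, 12.7% had this order. The exceptions were mt-Atp8, both ribosomal RNAs and mt-Tp. The 11 include mt-Nd3, whose order of libraries is not resolved at 6 to 29 counts. S1007 was the lowest library in 11 of the 15 genes, and in 11.0% of all genes at that level. Summed over the 13 messenger RNAs the level was 12006, 12156, 12749, 8541, 7754, 6697, 4217, 5293 and 6801 CPM, a 3.02-fold range between S1003 and S1007. With total counts in place of scaled totals S1006 and S1009 changed places and the order of the other libraries stayed.

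**Figure D2:**
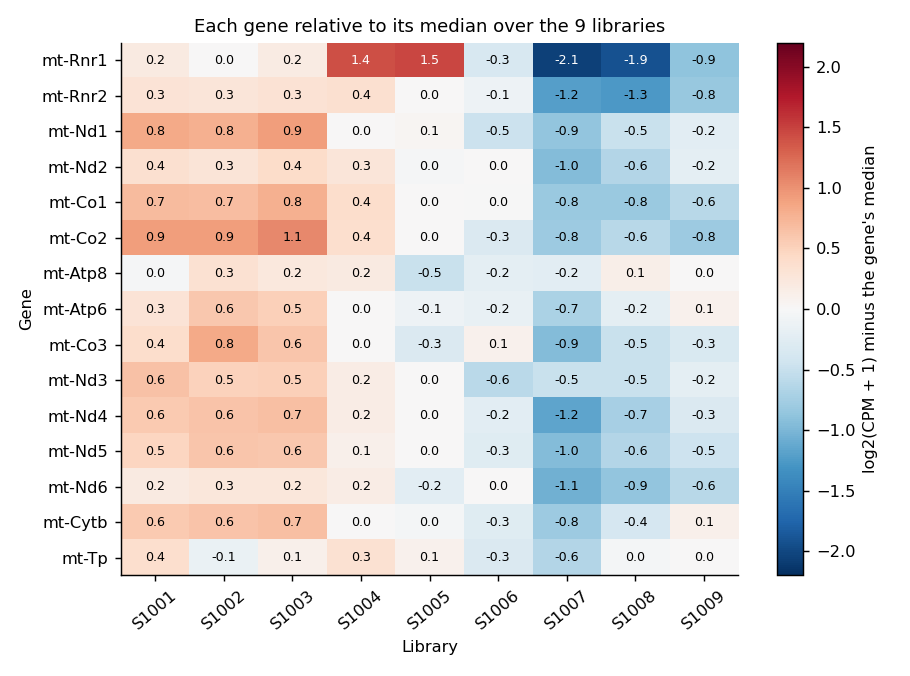
Difference between each library's log2(CPM + 1) and the gene's median over the 9 libraries, for the 15 genes that averaged 1 CPM or more. Red is above and blue below the median. S1001 to S1003 lie above the median in 11 messenger RNAs, and mt-Rnr1 is highest in S1004 and S1005.

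The size of the variation was described by the spread, the step in log2(CPM + 1) that separates the library ranked second from the top and the one ranked second from the bottom. The added 1 CPM understates this for genes near 1 CPM. At least 2-fold spread was reached by 11 of the 15 genes, and by 26.4% of all 14787 genes at 1 CPM or more. Among genes averaging 10 CPM or more it was reached by 10 of 12 members, and by 18.3% of all genes. The median spread of the 15 was 1.12, against 0.66 for all genes. Among the messenger RNAs mt-Co2 had the widest spread, 1.73, followed by mt-Co1 at 1.52 and mt-Nd4 at 1.36. mt-Nd2 (1.00) and mt-Nd3 (1.03, on 6 to 29 counts) lay just inside the threshold and mt-Cytb (0.996) just outside it. The others below it were mt-Atp6 (0.73), mt-Tp (0.66) and mt-Atp8 (0.48). The count of 11 depended on single libraries. It was 7 of 15 without S1007 and 7 of 15 without S1008, where 22.5% and 22.8% of all genes passed, and 8 without S1003, where 24.7% passed. Without S1002 and S1003 together, which was tried after the data had been seen, it was 5 of 15 (33.3%), against 19.6% of all genes.

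Within the messenger RNA pool the shares of single genes also shifted, and shares do not depend on the scaling between libraries. mt-Cytb held 31.7%, 32.6%, 31.9%, 30.0%, 32.2%, 31.9%, 34.8%, 37.5% and 40.5% of the mitochondrial messenger RNA counts in S1001 to S1009. It was thus highest in S1007 to S1009. mt-Co1 held 19.2%, 18.8%, 19.1%, 21.8%, 18.4%, 21.1%, 19.1%, 15.2% and 13.7%, and was lowest in S1008 and S1009. mt-Nd1 ranged from 15.7% in S1006 to 21.8% in S1001, mt-Nd2 from 6.39% in S1002 to 9.47% in S1006, and mt-Nd5 only from 6.59% to 7.97%. mt-Nd6, from the other strand, held 1.145%, 1.17%, 1.11%, 1.58%, 1.31%, 1.78%, 1.34%, 1.22% and 1.143%. Its level per kilobase was 0.530 to 0.818 times that of mt-Nd5, which overlaps its end by 14 bases on the opposite strand. The sources used here do not say whether counting used strand, so reads of these neighbours and of antisense transcripts cannot be told apart.

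**Figure D3:**
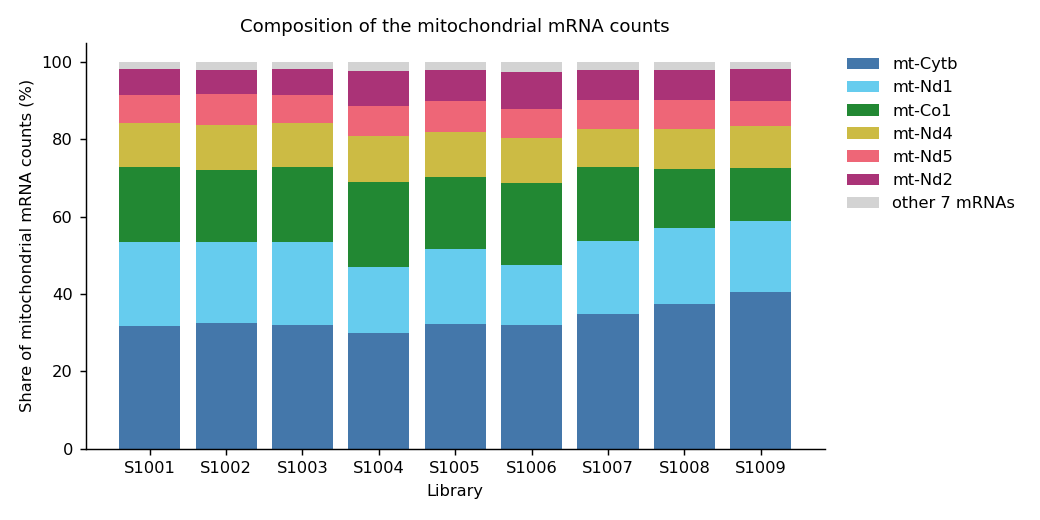
Share of the mitochondrial messenger RNA counts of each library held by the 6 most abundant genes and by the other 7 together, in percent. mt-Cytb takes 30.0% to 34.8% in S1001 to S1007 and 37.5% and 40.5% in S1008 and S1009.

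Of the 2 ribosomal RNAs, mt-Rnr1 departed from the order of the messenger RNAs, while mt-Rnr2 came closer to it. mt-Rnr1, the RNA of the small mitochondrial ribosomal subunit (positions 70 to 1024), measured 464, 406, 457, 1085, 1119, 319, 96.5, 107 and 218 CPM. S1004 and S1005 stood above every other library, and the spread of 3.33 on the log2 scale was the widest of the 15 genes. mt-Rnr2, the RNA of the large subunit (positions 1094 to 2675), measured 1905, 1879, 1930, 1990, 1554, 1430, 669, 649 and 867 CPM. There S1001 to S1004 were within 1879 to 1990 CPM of each other and S1007 to S1009 were lowest, with a spread of 1.53.

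The counts of mt-Rnr1 were 0.244, 0.216, 0.237, 0.545, 0.720, 0.223, 0.144, 0.165 and 0.252 times those of mt-Rnr2 in S1001 to S1009. Both ribosomal RNAs together had 0.197, 0.188, 0.187, 0.360, 0.345, 0.261, 0.181, 0.143 and 0.160 times the counts of the messenger RNAs. This ratio was highest in S1004 to S1006. It had a spread of 1.11, which fell to 0.71 without S1004 or without S1005. Of mt-Rnr2 alone to messenger RNA the spread was 0.74, and of mt-Rnr1 alone it was 2.47. The sources used here do not say how RNA was selected for the libraries. Rn7sk, a small nuclear RNA without a poly(A) tail, measured 7.79, 4.53, 7.09, 8.63, 13.2, 7.63, 5.38, 7.01 and 7.15 CPM, and was thus highest in S1004 and S1005. Rn7s1 and Rn7s2 were highest in neither, at 2.32 and 3.68 CPM in S1004 and 2.41 and 5.31 CPM in S1005. Rn7s2 in S1005 was close to its highest level, 5.36 CPM in S1009. The 20 RNAs without a poly(A) tail that were listed summed to 19.0, 10.7, 14.6, 16.8, 24.1, 12.2, 12.4, 11.6 and 17.6 CPM. S1005 was highest, and S1001 and S1009 lay above S1004. Entries for cytosolic ribosomal RNA summed to 16.1 CPM in S1004 and 40.5 CPM in S1005, within their range of 12.9 to 82.5 CPM. Their part in the mt-Rnr1 level was not tested.

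**Figure D4:**
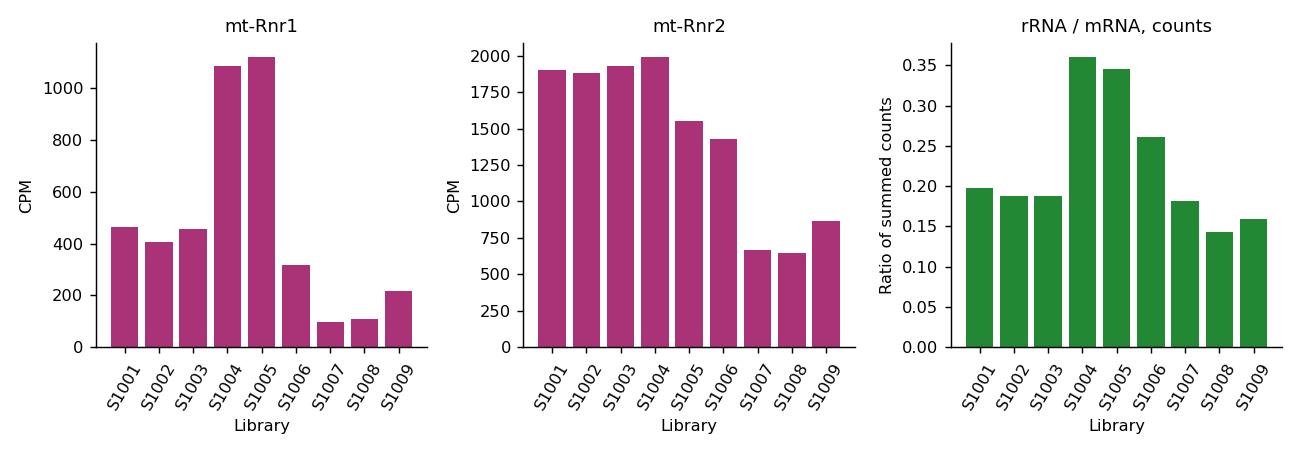
Level of mt-Rnr1 and mt-Rnr2 in CPM and the ratio of ribosomal to messenger RNA counts of the mitochondrial genome, 1 bar for each library. mt-Rnr1 stands at 1085 and 1119 CPM in S1004 and S1005 and at 96.5 to 464 CPM elsewhere.

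Transfer RNAs were almost absent from the tables. Of 22 transfer RNAs, which are 59 to 75 bases long, 21 had a count of 0 in every library. A count of 0 allows up to 0.158 to 0.246 CPM, depending on the library. mt-Tp, the exception, lies on the minus strand at positions 15356 to 15422, the last annotated gene before the control region, and is 67 bases long. It is shown because it alone carried counts, and none of its 50-base windows occurred in an annotated nuclear transcript.
mt-Tp: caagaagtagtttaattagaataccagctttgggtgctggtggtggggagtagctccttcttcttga

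mt-Tp had 117, 83, 103, 177, 111, 76, 63, 113 and 116 counts in S1001 to S1009. This gave 9.59, 6.38, 7.85, 9.32, 7.65, 5.52, 4.24, 6.88 and 7.15 CPM. Its neighbour mt-Tt, for threonine, which lies directly between mt-Cytb and mt-Tp on the plus strand, had 0 counts. Per kilobase mt-Tp had a median of 107 CPM, below mt-Nd6 and above mt-Atp6. Its spread of 0.66 was that of the median gene. Whether these reads came from the transfer RNA or from longer transcripts that cross it was not tested.

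Nuclear genes for subunits of the same complexes did not share the order of the mitochondrial ones. The 76 nuclear genes of complexes I and III to V that were listed summed to 18908, 16412, 17666, 28617, 24073, 22729, 22232, 21497 and 29060 CPM in S1001 to S1009. S1001 to S1003 were lowest here, and were the 3 lowest libraries in 35 of the 75 nuclear genes at 1 CPM or more, against 11.8% of all genes, and the 3 highest in 0 of 75, against 12.7%. The spread passed 2-fold in 7 of the 75 (9.33%), against 26.4% of all genes. Its median was 0.70, against 0.66 for all genes. Atp5b, the catalytic beta subunit of the ATP synthase, measured 1425, 1461, 1446, 1766, 1613, 1509, 2103, 1955 and 2026 CPM. Ndufs5, a complex I subunit, had the widest spread, 1.64, and ranged from 8.75 CPM in S1009 to 226 CPM in S1005.

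The other nuclear subunits looked at singly were the most abundant and most variable of each complex. Ndufa10, Ndufb8 and Ndufa12 of complex I ranged from 367 to 646, from 281 to 675 and from 98.2 to 342 CPM. Cyc1, which carries the heme of cytochrome c1, ranged from 257 to 509 CPM in complex III, and Uqcrc2, Uqcr11 and Uqcr10 had spreads of 0.47, 1.15 and 1.10. In complex IV Cox4i1 and Cox6a1 ranged from 537 to 1019 and from 394 to 888 CPM. In complex V Atp5a1, the alpha subunit, ranged from 718 to 1214 CPM, Atp5k from 38.3 to 110.2 CPM, and Atpif1, an inhibitor of the enzyme, from 248 to 572 CPM. In each of these genes of complexes I and III to V the lowest library was S1001, S1002 or S1003. Ndufs5, chosen by the same rule, was lowest in S1009. The share of all genes lowest in S1001, S1002 or S1003 was not counted. Complex II, which has no mitochondrially encoded subunit, had 0 of 4 genes past 2-fold, against 26.4% of all genes. Sdha, Sdhb and Sdhd ranged from 395 to 673, from 389 to 571 and from 200 to 317 CPM.

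The ratio of mitochondrial messenger RNA counts to those of the nuclear subunits was 0.635, 0.741, 0.722, 0.298, 0.322, 0.295, 0.190, 0.246 and 0.234. S1001 to S1003 were at least 0.635 and all other libraries at most 0.322. The spread of this ratio was 1.62 on the log2 scale and 1.84 for complex I alone, and it was 0.46 without S1002 and S1003 together. For complex I the mitochondrial sum was 5801, 5815, 6139, 4058, 3776, 3096, 1912, 2456 and 3063 CPM, and the nuclear sum 7414, 6275, 6843, 11562, 9576, 9384, 8675, 8645 and 12244 CPM. For complex IV the mitochondrial sum ranged from 819 CPM in S1007 to 2490 CPM in S1003, and the nuclear sum from 3081 CPM in S1002 to 5828 CPM in S1004.

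**Figure D5:**
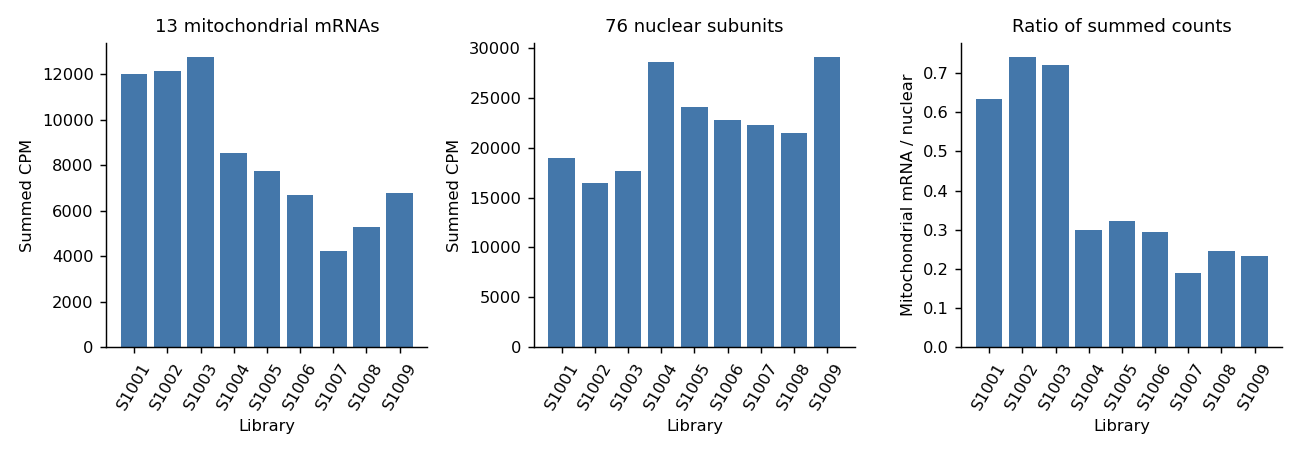
Summed level of the 13 mitochondrial messenger RNAs and of 76 nuclear genes for subunits of the same complexes, in CPM, and the ratio of their summed counts, 1 bar for each library. The ratio is 0.635 to 0.741 in S1001 to S1003 and 0.190 to 0.322 in the other 6 libraries.

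Marker sums of cell types also differed between libraries, but not all in the same order. Microglia and macrophage markers summed to 18407, 16963, 17607, 6076, 4747, 4841, 79.3, 144 and 27.4 CPM in S1001 to S1009. Oligodendrocyte markers summed to 613, 597, 621, 116, 156, 93.5, 31.2, 60.4 and 44.2 CPM. All 8 passed 2-fold spread, against 26.4% of all genes. Pyramidal neuron markers summed to 5304, 5065, 5112, 3271, 3093, 3321, 7265, 5762 and 7701 CPM, so S1004 to S1006 were lowest. Inhibitory neuron markers summed to 327, 280, 294, 1530, 694, 1245, 1420, 1844 and 492 CPM, so S1001 to S1003 were lowest. Dentate granule cell markers summed to 296 to 499 CPM, of which Calb1 alone measured 214 to 405 CPM. Of these 7 markers 6 passed 2-fold spread, against 26.4% of all genes. Prox1 ranged from 1.75 CPM in S1007 to 26.0 CPM in S1008, and C1ql2 from 2.28 CPM in S1009 to 36.1 CPM in S1008. Astrocyte markers summed to 237 to 248 CPM in S1001 to S1003, within their range of 117 to 425 CPM, but single markers differed in direction. Of these 8 markers 6 passed 2-fold spread, against 26.4% of all genes. Gfap was highest in S1001 to S1003, at 39.0 to 44.6 CPM. Gja1 measured 2.82 to 4.92 CPM there and 8.58 to 15.0 CPM in S1004 to S1006. Of the 7 markers of antibody-secreting cells, Igkc, an immunoglobulin light chain gene, measured 2133 to 2180 CPM in S1001 to S1003 and at most 0.853 CPM in the other 6 libraries, and Jchain 1046 to 1131 CPM and at most 1.17 CPM. Xbp1, of the same list but also used in other cells, ranged only from 191 to 388 CPM and made up most of the list's sum of 201 to 389 CPM in those 6 libraries, against 3529 to 3673 CPM in S1001 to S1003. Mzb1, Sdc1 and Prdm1 of this list were also highest in S1001 to S1003, and Prdm1 measured 1.31 to 5.10 CPM in S1004 to S1006. Tnfrsf17 went the other way, at 3.13 to 6.21 CPM in S1004 to S1006 and 2.29 to 3.11 CPM in S1001 to S1003. Markers of erythroid cells summed to 0.183 to 1.10 CPM. The part of these cells in the mitochondrial levels was not tested.

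Nuclear genes that maintain, transcribe and translate the mitochondrial genome are set here beside all genes, of which 26.4% passed 2-fold with a median spread of 0.66. Of 20 genes for replication and transcription, 1 passed (median spread 0.46). Tfam, which packages mitochondrial DNA and starts its transcription, measured 40.6, 46.9, 46.7, 43.8, 33.4, 43.8, 46.0, 42.4 and 55.2 CPM, with no library far from the others. Polrmt, the mitochondrial RNA polymerase, measured 14.6, 12.8, 13.04, 11.3, 10.0, 9.30, 20.3, 20.5 and 16.8 CPM, and was highest in S1007 to S1009. Ssbp1, which coats single-stranded mitochondrial DNA, ranged from 46.9 to 64.0 CPM. The gene past 2-fold was Primpol, a primase and polymerase, at 0.606 to 5.99 CPM.

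None of 39 genes for mitochondrial RNA processing and stability passed 2-fold (median spread 0.47). Among them Rexo2, an exonuclease that clears short RNA fragments, ranged only from 117 to 145 CPM, and Dhx30, an RNA helicase, from 67.4 to 117 CPM. Mrm3 and Mrm2, which methylate the large ribosomal RNA, had the widest spreads of this list, 0.90 and 0.89. Mrm2 measured 15.2, 12.3, 12.96, 30.2, 21.0, 17.9, 24.3, 24.9 and 22.8 CPM, lowest in S1001 to S1003. Of 79 mitochondrial ribosomal protein genes 3 passed 2-fold (median 0.57), namely Mrpl14, Mrps34 and Mrpl28, with spreads of 1.12, 1.05 and 1.011. The most abundant of this list, Mrps14, ranged from 145 to 230 CPM.

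Of the 20 genes for loading amino acids onto mitochondrial transfer RNAs, only Lars2, the leucyl-tRNA synthetase, passed 2-fold. It measured 1239, 1093, 1158, 474, 572, 199, 154, 142 and 250 CPM, a spread of 2.90. S1001 to S1003 were highest, and the next synthetase gene by level, Yars2, ranged from 28.1 to 56.7 CPM. Pars2 had the next widest spread, 0.84. No 50-base window of any mitochondrially encoded gene occurred in a Lars2 transcript. Whether Lars2 reads came from other sequences was not tested.

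Genes for import, carriers and general mitochondrial content (24 genes) and for mitophagy, the removal of damaged mitochondria (11 genes), had 0 and 0 members past 2-fold, with median spreads of 0.42 and 0.41. Slc25a4, the ADP/ATP carrier of the inner membrane, measured 1333, 1292, 1338, 1800, 1620, 1628, 1918, 1765 and 2393 CPM, and Pink1, a kinase that marks damaged mitochondria, ranged from 155 to 331 CPM. Slc25a3, the phosphate carrier, ranged from 836 to 1274 CPM, and Timm23 and Phb, of the import channel and of the inner membrane, had spreads of 0.91 and 0.78. Sqstm1, an autophagy receptor, ranged from 510.3 to 976 CPM, and Bcl2l13, a mitophagy receptor, had a spread of 0.69. Of 12 regulators of mitochondrial biogenesis 3 passed 2-fold, which is 25% and close to the 26.4% of all genes. Nfe2l2, a transcription factor of the oxidative stress response, measured 129, 136, 140, 64.8, 56.2, 46.1, 0.471, 1.10 and 0.678 CPM, with S1001 to S1003 highest and S1007 to S1009 lowest, as for the sum of the microglial markers. Esrra, a nuclear receptor that drives respiratory genes, ranged from 3.27 to 23.7 CPM with its highest level in S1007, and Sirt3, a mitochondrial deacetylase, from 50.7 to 119 CPM. Of 14 stress response genes at 1 CPM or more, 4 passed 2-fold, against 26.4% of all genes. Gdf15, a secreted stress cytokine, and Phgdh, the first enzyme of serine synthesis, spread most widely, with S1001 to S1003 highest in both, at 18.6 to 21.7 CPM and 24.2 to 28.6 CPM. Asns and Clpp, the most abundant of this list, ranged from 207 to 335 and from 99.01 to 203 CPM.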

How the data were processed

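RNA of sorted cells was profiled in 9 libraries. For each of 51912 Ensembl genes the deposited tables hold, per the file headers, an unscaled count and an FPKM value, which the authors derived from count, gene length and library total. Build mm10, HTSeq 0.6.1, HISAT2 2.0.1, Trimmomatic 0.30 and bcl2fastq 2.17.1.14 appear in the submitters' processing notes, without settings in the sources used here. The FPKM values were used only to check gene lengths, and over 113 values of members with at least 100 counts the length behind them differed from the annotated length by at most 0.0495%. Symbols and positions came from GENCODE M21, which held 51719 (99.63%) of the identifiers.

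CPM were computed from the counts with TMM (edgeR 4.0.16, R 4.3.3), whose factors lay between 0.958 and 1.05. The spread used log2(CPM + 1), a pseudocount of 1 CPM, a minimum mean of 1 CPM and a threshold of 2-fold. Transcripts of GENCODE M21 were searched for unchanged windows of 50, 100 and 150 bases on both strands, and aligned with Biopython 1.88. The spread calculation was tested on simulated data. No differential test was run, because no library has a dose in the labels. Every messenger and ribosomal RNA among the members was named, as was the transfer RNA with counts. The transfer RNAs without counts were given mainly as a number. Of each other list the 2 most abundant genes and the 2 of widest spread were named, besides every nuclear copy with counts. Of the cell type markers sums were given, with genes that show absence or presence, weigh heavily in a sum or depart from it. A gene that this rule names is not reported here. The members and lists were chosen with earlier results of these data known. Alternatives were DESeq2 1.42.0 size factors, total counts with and without the members, pseudocounts of 0.5 and 5 CPM, other minimum levels, the full range, and leaving out libraries. Python 3.11.15, numpy 2.4.6, pandas 2.3.3, scipy 1.17.1 and matplotlib 3.10.9 were used.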

Additional observations from a re-analysis of the deposited data

How the results depend on the processing

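The number of members past 2-fold, 11, was 10 to 12 with the other scalings, 8 with a pseudocount of 5 CPM, where 13.2% of all genes passed, and 14 with the full range, where 52.6% passed. It was 7 to 11 when 1 library was left out, with 21.6% to 24.8% of all genes, and 5 without S1002 and S1003 together, with 19.6%, a setting chosen after seeing the data. The spread of summed messenger RNA, 1.20, ranged from 0.80 to 1.20 with 1 library left out, below 2-fold without S1007 (0.80) or S1008 (0.86), and was 0.69 without S1002 and S1003. Without the 5 genes that have near-identical nuclear copies it was 1.20. The spread of summed ribosomal RNA, 1.80, ranged from 1.29 to 1.82 with 1 library left out. The spread of the ratio of ribosomal to messenger RNA, 1.11, ranged from 0.71 to 1.11 and was 0.74 with mt-Rnr2 alone. The spread of the ratio to nuclear subunits, 1.62, ranged from 1.44 to 1.62, and was 0.46 without S1002 and S1003. The median share of counts, 1.09%, ranged from 0.978% to 1.12%, and was 1.13% of protein-coding counts and 0.866% without S1002 and S1003. The cause of these shifts was not tested, apart from the libraries left out. Other scalings moved the median of all genes by at most 0.0761 on the log2 scale. No paired analysis was possible because no library has a group. With 4 to 29 counts a library, the values of mt-Nd3 and mt-Nd4l are imprecise. The reason for these low counts was not tested.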

Other observations

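Gm15564, a pseudogene on chromosome 16 that was listed as a possible nuclear copy of mitochondrial sequence, shared no 50-base window with any mitochondrially encoded gene. It had 35, 16, 29, 29, 15, 8, 16, 12 and 9 counts in S1001 to S1009. Gm26917, an entry on chromosome 17 listed for cytosolic ribosomal RNA, measured 58.0, 40.4, 45.9, 13.3, 36.5, 12.1, 61.1, 79.5 and 21.8 CPM. Gm26917 was highest in S1007 and S1008, where mt-Rnr1 was lowest. Gm42418, a further such entry, ranged from 0.80 to 4.00 CPM and was highest in S1005.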
